A study of Mus musculus with 6 samples.

Results

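The 41 genes described here encode the machinery that makes, removes and reads cyclic AMP: 9 adenylyl cyclases, 15 phosphodiesterases, 6 subunits of protein kinase A, 2 of its protein inhibitors, 2 anchoring proteins, 5 CREB factors and coactivators, and 2 Epac exchange factors. They were chosen by name. A gene was measured where a row of the array carried its symbol alone in the array annotation, and the row with the highest mean was to be used where a gene had several. This gave 39 of the 41 genes, each with a single row, out of 19047 protein-coding genes. The row of Pde4d also carries the symbol of a microRNA, and Rapgef4 (Epac2) was not matched to a row. Both were not analysed here.

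Cyclic AMP is made from ATP by adenylyl cyclases when hormone receptors signal through stimulatory G proteins, and it is broken down by phosphodiesterases. It releases the catalytic subunits of protein kinase A from their regulatory subunits. In adipocytes, the kinase then phosphorylates hormone-sensitive lipase and perilipin 1 to start lipolysis, and CREB in the nucleus to start transcription. The same signal is part of the standard induction of 3T3-L1 cells, a mouse fibroblast line that takes on adipocyte features, because the cocktail contains IBMX, an inhibitor of most phosphodiesterases.

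Total RNA was measured on 6 Affymetrix MTA-1_0 arrays. In 3 of them the 3T3-L1 cells carried shSTOM-1, a lentiviral short hairpin RNA against stomatin (Stom), and in 3 Control arrays they carried the Plas4w lentivirus with the vector alone. Cells of both groups underwent 3 days of puromycin (3 µg/ml), then 72 hours of insulin with IBMX (0.5 mM) and dexamethasone (0.25 µM), then insulin alone until harvest on day 7. The arrays cover 1 hairpin, and the Control was a vector, not described as carrying a hairpin. The samples are numbered as clones, and nothing in the sources used here says whether these were separate cultures, so each p-value reflects how far these particular samples scatter, and part or all of that scatter may be technical.

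Stom, which encodes a membrane raft protein and is the target of the hairpin, had log2 signals of 13.17, 13.03 and 13.26 under Control and 10.57, 10.60 and 10.67 with shSTOM-1 (log2 change -2.54, adjusted p = 1.13e-08). Each log2 change is the shSTOM-1 mean minus the Control mean, SE is its standard error, and the adjusted p-values come from limma over the 19047 genes. The labelled adipocyte-like state was checked against marker genes. Of 12 white adipocyte markers, 11 were lower in shSTOM-1 cells. The mean log2 signal over all 12 was 10.68 to 11.14 against 14.42 to 14.49 in the Control. The remaining marker, leptin (Lep), lay under the median of all values in both groups. Of 8 measured markers of preadipocytes and fibroblasts, all 8 were higher, at 13.85 to 13.87 against 11.94 to 12.08. Lists of other cell types had low mean signals, though some of their genes were lower with the knockdown. They were 4.71 to 4.98 over 4 brown adipocyte markers, 4.78 to 4.98 over 5 macrophage markers and 4.48 to 4.53 over 3 endothelial markers, of which 2, 4 and 3 genes lay under the median of all values in both groups. Within these lists, Cidea of the brown adipocyte list (log2 change -0.70, adjusted p = 8.73e-05), Cd68 of the macrophage list (-0.72, adjusted p = 0.00365) and Pecam1 of the endothelial list (-0.17, adjusted p = 0.0156) were lower. Over 4 skeletal muscle markers the mean was 5.28 to 5.31 in shSTOM-1 cells and 6.12 to 6.17 in the Control, with Des (desmin) lower at a log2 change of -2.98 and Mb (myoglobin) at -0.33 (adjusted p = 0.0021). The arrays thus compared cells with a strong and a weaker adipocyte profile. In bulk RNA, fewer adipocytes and less of a transcript per adipocyte cannot be told apart, and the part of these markers in the changes below was not tested.

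At an adjusted p under 0.05, 14 of the 39 genes rose and 8 fell with shSTOM-1, while 22.2% of all genes tested were higher and 22.7% lower. The 22 genes made up 56.4%, against 44.9% of all genes in either direction. Cells with the knockdown had lower transcripts of the kinase subunits Prkaca, Prkar2a and Prkar2b, of the inhibitor Pkig, of the anchoring protein gene Akap1, of the phosphodiesterase genes Pde4b and Pde2a and of the CREB relative Crem. They had higher transcripts of 4 cyclases, 4 phosphodiesterases, the kinase subunits Prkacb and Prkar1a, the inhibitor Pkia, the coactivators Crtc1 and Crtc3, and Epac1 (Rapgef3). The median log2 change was 0.01 over the 39 genes and -0.003 over all genes tested, so the set moved in both directions. The median size of the change was 0.28, against 0.14 over all genes. Low signal was less common in the set. Both group means lay under the median of all values in 10 of the 39 genes and in 7500 of all 19047. Among genes with a group mean at or above it, 75.9% of the set and 69.5% of all genes passed. Their median sizes of change were 0.403 and 0.353. A mean that is high in 1 group is enough here, so a change can itself bring a gene in, as in Rapgef3 (Control mean 5.06, shSTOM-1 mean 5.70).

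**Figure D1:**
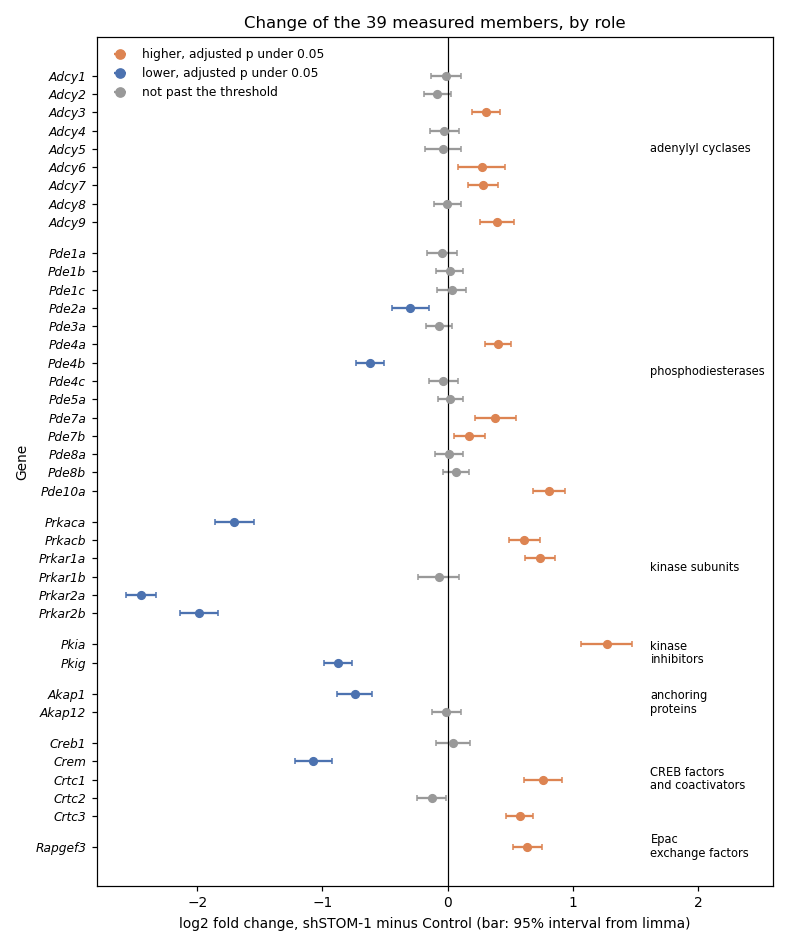
Log2 change (shSTOM-1 minus Control, x axis) of each measured gene, ordered by role, with its 95% interval from limma. The kinase subunits spread from -2.45 to 0.74, while every cyclase lies between -0.08 and 0.39.

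The arrays carry no detection calls, so the median of all values, 5.10, served as a mark of low signal. In 10 genes both group means lay under it: Adcy1, Adcy2, Adcy4, Adcy8, Pde1c, Pde3a, Pde4c, Pde5a, Pde8a and Pde8b. None of these 10 passed the test, and their log2 changes lay between -0.08 and 0.07. In 24 of the 39 genes (61.5%) the groups did not overlap, which was so in 52.0% of all genes tested. With 3 arrays against 3, an exact permutation test (two-sided) cannot give a p under 0.1, the value of each of these 24 genes.

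The 3 largest changes were in subunits of protein kinase A, a tetramer of regulatory and catalytic subunits in which the regulatory pair (type I or type II) sets where the kinase sits. To show the sequences next to the starts of these genes, the bases upstream of a RefSeq start are given for Prkar1a, which rose, and for Prkaca, Prkar2a and Prkar2b, which fell. Each is the 150 bases before the start on the gene's own strand in GRCm38.p6, from RefSeq, at chr11:109650799-109650948 (plus strand), chr8:83972828-83972977 (plus), chr9:108691993-108692142 (plus) and chr12:32061278-32061427 (minus). Capitals mark the cAMP response element TGACGTCA, to which CREB binds, or, where that is absent, its half-site TGACG on either strand.
Prkar1a: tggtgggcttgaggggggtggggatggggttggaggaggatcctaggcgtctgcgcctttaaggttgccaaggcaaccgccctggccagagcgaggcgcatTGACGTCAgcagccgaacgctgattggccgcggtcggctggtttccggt
Prkaca: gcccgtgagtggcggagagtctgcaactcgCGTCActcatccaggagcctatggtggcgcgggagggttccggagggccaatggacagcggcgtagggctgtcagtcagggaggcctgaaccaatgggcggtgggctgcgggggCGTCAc
Prkar2a: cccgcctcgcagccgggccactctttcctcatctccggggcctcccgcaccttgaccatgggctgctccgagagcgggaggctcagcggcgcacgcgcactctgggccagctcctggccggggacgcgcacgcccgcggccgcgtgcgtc
Prkar2b: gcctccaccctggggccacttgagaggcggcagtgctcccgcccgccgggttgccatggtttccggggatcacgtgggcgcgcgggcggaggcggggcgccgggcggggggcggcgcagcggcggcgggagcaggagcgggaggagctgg

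The full element was searched in the 250 bases before each start. Of the 41 genes, 33 had a RefSeq window in the table, with 74 windows in all. The element was found for Prkar1a alone, in 1 of its 6 windows, where it begins 49 bases before the start. Over all 32851 windows of the table, 1.55% held it. The half-site, which the full element contains, was in 18.9% of the 74 windows and in 17.8% of all windows. Counted by gene, the 33 genes, which have more windows each, held the half-site in 36.4% and the full element in 3.03%, against 19.8% and 1.77% of the 27025 genes of the table. These are matches of letters and not binding sites, and the Prkar1a window shown was picked because it held the element. For Prkaca, which has 2 windows, the half-site was in 1 of them, the window shown.

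Prkar2a, which encodes the type II regulatory subunit RIIα, changed most. Its log2 signals were 8.64, 8.66 and 8.71 in shSTOM-1 cells and 11.18, 11.04 and 11.14 in Control cells. The groups lay far apart, with a log2 change of -2.45 (SE 0.05, adjusted p = 7.01e-09), or 5.46-fold lower, and 1.85% of all genes changed by as much or more. Prkar2b, the RIIβ subunit typical of fat, was at 11.95, 11.89 and 12.08 in shSTOM-1 cells and 13.89, 14.05 and 13.94 in Control cells. No array overlapped, and the gene was 3.96-fold lower (log2 change -1.99, SE 0.07, adjusted p = 3.44e-08). Both type II regulatory subunits therefore fell.

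The type I regulatory subunits did not fall. Prkar1a, the widely expressed RIα subunit, was at 12.18, 12.25 and 12.14 in shSTOM-1 cells and 11.51, 11.41 and 11.44 in Control cells, 1.67-fold higher (log2 change 0.74, SE 0.05, adjusted p = 3.42e-06). Every shSTOM-1 array was above every Control array. Prkar1b, the RIβ subunit of the nervous system, had a log2 change of -0.07 (95% interval -0.23 to 0.09, adjusted p = 0.497), at low signals of 5.38 to 5.65 over all 6 arrays.

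The catalytic subunits moved in opposite directions. Prkaca, the major catalytic subunit Cα, was at 13.12, 12.92 and 13.02 in shSTOM-1 cells and 14.80, 14.74 and 14.63 in Control cells. It was 3.26-fold lower (log2 change -1.70, SE 0.07, adjusted p = 9.27e-08), without overlap. The array also has a row for the pseudogene Prkaca-ps1, a copy of this gene, with a log2 difference of -1.50, and probes of near-identical copies may read each other's transcripts. Prkacb, the catalytic subunit Cβ, was at 10.00, 10.11 and 10.09 in shSTOM-1 cells and 9.52, 9.45 and 9.39 in Control cells, 1.53-fold higher (log2 change 0.61, SE 0.05, adjusted p = 1.65e-05). Prkaca, Prkar2a and Prkar2b were the 3 of 39 genes past an adjusted p of 0.001 and a change of 3-fold, which 5.20% of all genes tested passed. At an adjusted p under 0.05 and a log2 change of at least 1, Pkia and Crem joined them to make 5 genes, and 10.9% of all genes passed.

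**Figure D2:**
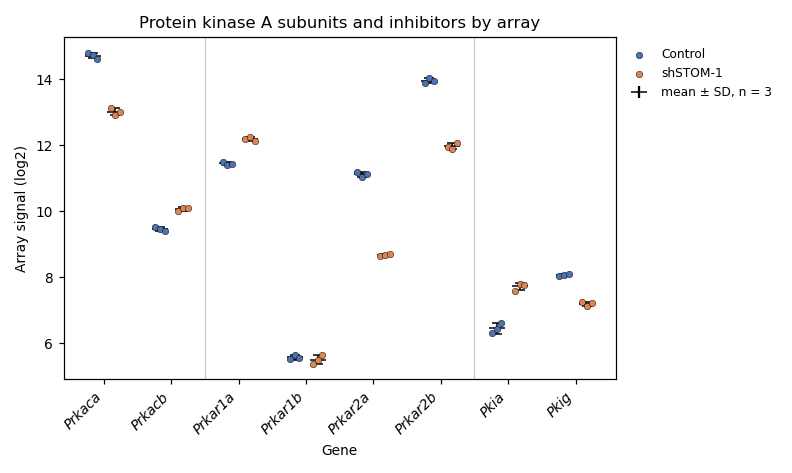
Log2 array signal (y axis) of the kinase subunit and inhibitor genes in each array, 3 Control (left of each gene) and 3 shSTOM-1 (right), with mean ± SD. Prkaca, Prkar2a, Prkar2b and Pkig are lower in all shSTOM-1 arrays, Prkacb, Prkar1a and Pkia are higher, and Prkar1b overlaps; heights of different genes are not comparable.

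The protein kinase inhibitors, small proteins that block free catalytic subunits and carry them out of the nucleus, also moved in opposite directions. Pkia was at 7.59, 7.80 and 7.77 in shSTOM-1 cells and 6.30, 6.43 and 6.62 in Control cells, 2.41-fold higher (log2 change 1.27, SE 0.09, adjusted p = 3.51e-06). Pkig was at 7.24, 7.13 and 7.22 against 8.04, 8.07 and 8.10, 1.83-fold lower (log2 change -0.87, adjusted p = 8.6e-07). In neither gene did the groups overlap. Among the anchoring proteins, which tether the kinase to sites in the cell, Akap1 of the outer mitochondrial membrane was at 8.08, 7.89 and 8.03 against 8.69, 8.76 and 8.78, 1.67-fold lower (adjusted p = 9.3e-06). Akap12 (gravin), a scaffold at the plasma membrane, had a log2 change of -0.01 (95% interval -0.13 to 0.11).

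Of 9 adenylyl cyclases, 4 were higher and none lower, so 44.4% passed the test, close to the 44.9% of all genes. Of the 5 cyclases with a group mean at or above the median of all values, 80% passed, against 69.5% of all such genes. Adcy9, a widely expressed isoform, was at 7.72, 7.75 and 7.68 in shSTOM-1 cells and 7.22, 7.33 and 7.42 in Control cells (log2 change 0.39, adjusted p = 0.00054). Adcy3 was at 6.26, 6.21 and 6.22 against 5.89, 5.98 and 5.90 (log2 change 0.31, adjusted p = 0.000611). Both were higher in every shSTOM-1 array, by no more than 1.31-fold. Adcy7 also rose (log2 change 0.28, adjusted p = 0.00196), at signals of 5.19 to 5.59, close to the median of all values. Adcy6, an isoform inhibited by calcium, was at 10.28, 9.97 and 10.04 against 9.75, 9.85 and 9.87, and its spread among the shSTOM-1 arrays (SD 0.163) was wider than among the Control arrays (SD 0.064). Its log2 change of 0.27 (adjusted p = 0.0237) no longer passed with Control replicate 1 left out (adjusted p = 0.0803), with Control replicate 2 left out (adjusted p = 0.0522) or in a linear model without moderation (adjusted p = 0.112). Without shSTOM-1 replicate 1, the array at 10.28, the log2 change was 0.18 (adjusted p = 0.0441). Adcy5 had a log2 change of -0.04 (95% interval -0.18 to 0.11).

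Of 14 phosphodiesterases measured, 4 were higher, 2 were lower and 8 did not pass the test. The share that passed, 42.9%, was also near the 44.9% of all genes. Of the 8 phosphodiesterases with a group mean at or above the median of all values, 75% passed, against 69.5% of all such genes. Pde10a, which splits both cAMP and cGMP, rose most, with signals of 7.41, 7.30 and 7.48 in shSTOM-1 cells and 6.62, 6.55 and 6.59 in Control cells (log2 change 0.81, adjusted p = 3.58e-06). This was 1.75-fold, with every shSTOM-1 array above every Control array. The cAMP-specific PDE4 family divided. Pde4b was at 5.87, 5.90 and 5.92 against 6.54, 6.55 and 6.46, 1.54-fold lower (log2 change -0.62, adjusted p = 6e-06). Pde4a was at 7.56, 7.61 and 7.52 against 7.17, 7.17 and 7.14, 1.32-fold higher (log2 change 0.40, adjusted p = 8.61e-05). The groups were separate in both genes, in opposite directions.

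The PDE7 enzymes, also specific for cAMP, were both higher. Pde7a had signals of 8.83, 8.71 and 8.96 in shSTOM-1 cells and 8.43, 8.53 and 8.40 in Control cells (log2 change 0.38, adjusted p = 0.00191). Pde7b had a log2 change of 0.17 (adjusted p = 0.0288), and it did not pass under 8 of 14 alternatives, at adjusted p-values of 0.0513 to 0.0982. Among these were fits without Control replicate 2 (0.0962), Control replicate 3 (0.0875), shSTOM-1 replicate 2 (0.0982) and shSTOM-1 replicate 3 (0.0653). Pde2a, the enzyme that cGMP activates, was at 5.84, 5.96 and 5.85 against 6.11, 6.29 and 6.14, 1.23-fold lower (adjusted p = 0.00406). Pde1a, a calcium and calmodulin dependent enzyme, lay at 10.85 to 10.99 over all arrays, with a log2 change of -0.04 (95% interval -0.16 to 0.08). Pde1b had a log2 change of 0.02 (95% interval -0.09 to 0.12).

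**Figure D3:**
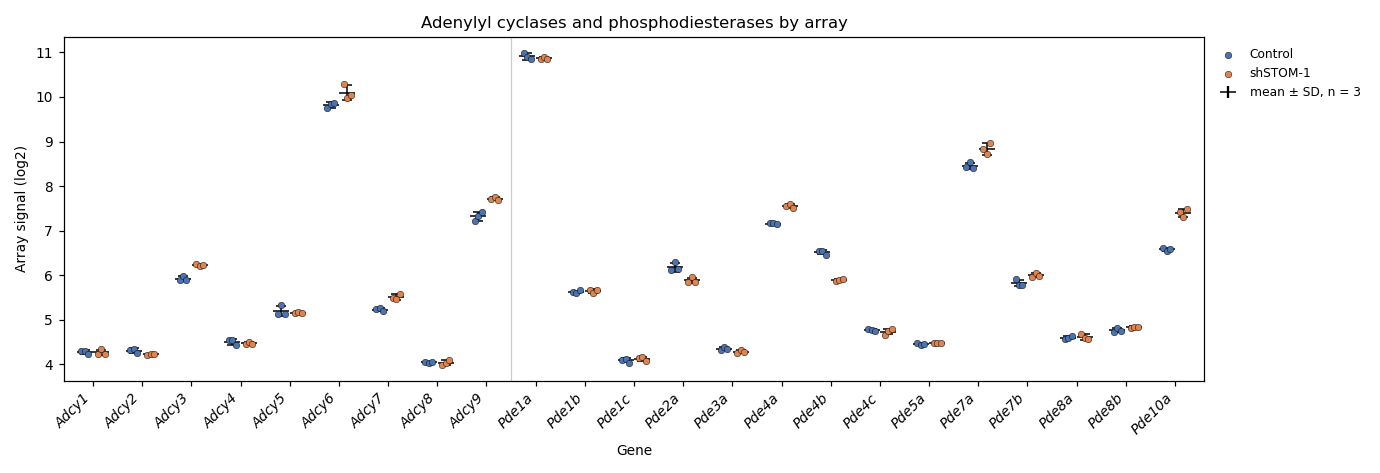
Log2 array signal (y axis) of 9 cyclase and 14 phosphodiesterase genes in each array, 3 Control (left of each gene) and 3 shSTOM-1 (right), with mean ± SD. Changes are small beside those of Prkaca, Prkar2a and Prkar2b, with Pde10a and Pde4b the furthest apart, and 10 of the genes lie under 5.10 in both groups.

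The CREB family and its coactivators did not move as one. Creb1, the transcription factor that the kinase phosphorylates, was at 10.59, 10.58 and 10.56 in shSTOM-1 cells and 10.43, 10.53 and 10.64 in Control cells. The groups overlapped, with a log2 change of 0.04 (95% interval -0.09 to 0.18, adjusted p = 0.628). Crem, whose products include activators and the cAMP-induced repressor ICER, was at 6.33, 6.24 and 6.35 against 7.26, 7.46 and 7.42, 2.10-fold lower (log2 change -1.07, SE 0.06, adjusted p = 1.21e-06). The single row does not tell these products apart.

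The CRTC coactivators enter the nucleus when cAMP is high and bind CREB there. Crtc1 was at 8.84, 9.02 and 8.97 in shSTOM-1 cells and 8.28, 8.13 and 8.13 in Control cells, 1.70-fold higher (log2 change 0.76, adjusted p = 1.36e-05). Crtc3 was at 8.66, 8.65 and 8.58 against 8.08, 8.03 and 8.05, 1.49-fold higher (log2 change 0.58, adjusted p = 8.54e-06). Both were separate from the Control in all arrays. Crtc2 had a log2 change of -0.13 (95% interval -0.24 to -0.01) that did not pass over all genes (adjusted p = 0.0787) and did pass after quantile normalization (adjusted p = 0.0169). Rapgef3, which encodes Epac1, a cAMP-gated activator of the small GTPase Rap that works apart from the kinase, was at 5.74, 5.71 and 5.65 against 5.03, 5.12 and 5.04. It was 1.55-fold higher (log2 change 0.64, adjusted p = 7.02e-06), and since its Control mean of 5.06 lay under the median of all values, this fold is approximate.

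**Figure D4:**
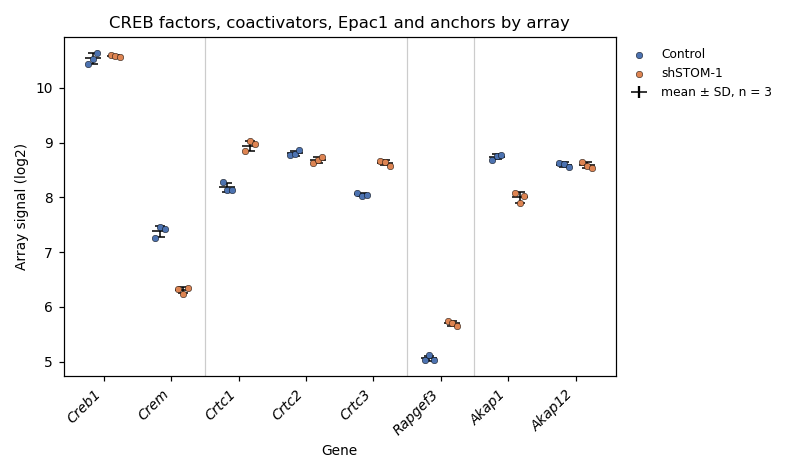
Log2 array signal (y axis) of the CREB, coactivator, Epac1 and anchoring protein genes in each array, 3 Control (left of each gene) and 3 shSTOM-1 (right), with mean ± SD. Crem and Akap1 are lower and Crtc1, Crtc3 and Rapgef3 higher in all shSTOM-1 arrays, while Creb1 and Akap12 overlap. Crtc2 is also lower in all shSTOM-1 arrays, by a small change that did not pass the test.

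The other genes of the pathway were taken from lists written by function, with earlier results of these data known. Their counts stand against 22.2% of all genes higher and 22.7% lower. Of 10 further cyclases and phosphodiesterases, 1 rose and 3 fell. The largest change was in Pde3b, the insulin-activated phosphodiesterase of adipocytes that restrains lipolysis, with a log2 change of -2.89 (adjusted p = 9.08e-09), or 7.41-fold lower. Pde6d, a carrier of prenylated proteins, was 1.66-fold higher. The 2 other falls, Adcy10 and Pde6h, were in genes under the median of all values in both groups.

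Of 15 further kinase, inhibitor and anchoring genes, 3 rose and 4 fell. Akap13 was 2.19-fold and the related kinase gene Prkx 1.89-fold higher, whereas Akap8l was 1.84-fold and Akap9 1.66-fold lower. Of 7 G protein alpha subunits, 6 were higher and none lower (85.7%, against 44.9% of all genes in either direction), and 1 of them, Gnai1, lay under the median of all values in both groups. The remaining gene, which did not pass, also lay under it in both groups. All genes of the list with a group mean at or above that median passed, against 69.5% of all such genes in either direction. The rises included the stimulatory subunit Gnas with a log2 change of 0.31 (adjusted p = 0.000661) and the inhibitory ones Gnai2 (0.64, adjusted p = 4.34e-06), Gnai3 (0.72, adjusted p = 4.74e-06) and Gnao1 (0.98, adjusted p = 3.05e-07). Of 10 measured receptors that act on cyclases, 2 rose and 3 fell, among them the receptors for thyrotropin (Tshr, log2 change -4.83), niacin (Hcar2, -4.29) and corticotropin (Mc2r, -2.87), while the neuropeptide Y receptor Npy1r had one of 4.45. The lower group means of Tshr (5.27) and Npy1r (5.51) were close to the median of all values, so these changes are approximate. The adrenergic and adenosine receptors of that list were not analysed here.

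Salt-inducible kinases hold CRTC proteins in the cytoplasm until protein kinase A phosphorylates them. Sik2 was 4.43-fold lower (adjusted p = 7.01e-09), Sik3 2.28-fold lower (adjusted p = 8.03e-07) and Sik1 3.99-fold higher (adjusted p = 1.43e-07). The coactivators Crebbp and Ep300 were both higher, with log2 changes of 0.41 and 0.44. Of 15 genes known to be induced through CREB, 9 fell and 2 rose, or 73.3% against 44.9% of all genes in either direction. The 4 of the 15 with both group means below the median of all values were the ones that did not pass. Every other gene of this list, each with a group mean at or above that median, passed, against 69.5% of all such genes in either direction. The falls were led by Nr4a1 (log2 change -2.11, adjusted p = 2.75e-07), Ppargc1a (-1.82, adjusted p = 3.59e-07) and Pck1 (-1.21, adjusted p = 7.65e-07), and the rises were Sik1 and Nr4a2. The shSTOM-1 mean of Pck1 (5.25) was close to the median of all values, so its change is approximate. The median log2 change of that list was -0.45, and -0.003 over all genes. Several of its genes respond to other signals too, Pck1 and Ppargc1a among them.

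Of 12 Rap proteins and other cAMP effectors or transporters, 4 rose and 2 fell. Rap2a was 8.13-fold higher (adjusted p = 9.51e-09) and Rap1b, a target of Epac, 2.11-fold higher (adjusted p = 4.03e-07), while Abcc4, which pumps cAMP out of the cell, was 2.01-fold lower (adjusted p = 4.38e-05). The other fall was in Rap1a (log2 change -0.19, adjusted p = 0.0276). Of 4 genes that carry out lipolysis under the kinase, all 4 were lower, at log2 changes of -4.35 for Plin1, -3.68 for Lipe, -3.67 for Pnpla2 and -1.50 for Abhd5. These genes are also markers of the adipocyte state.

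**Figure D5:**
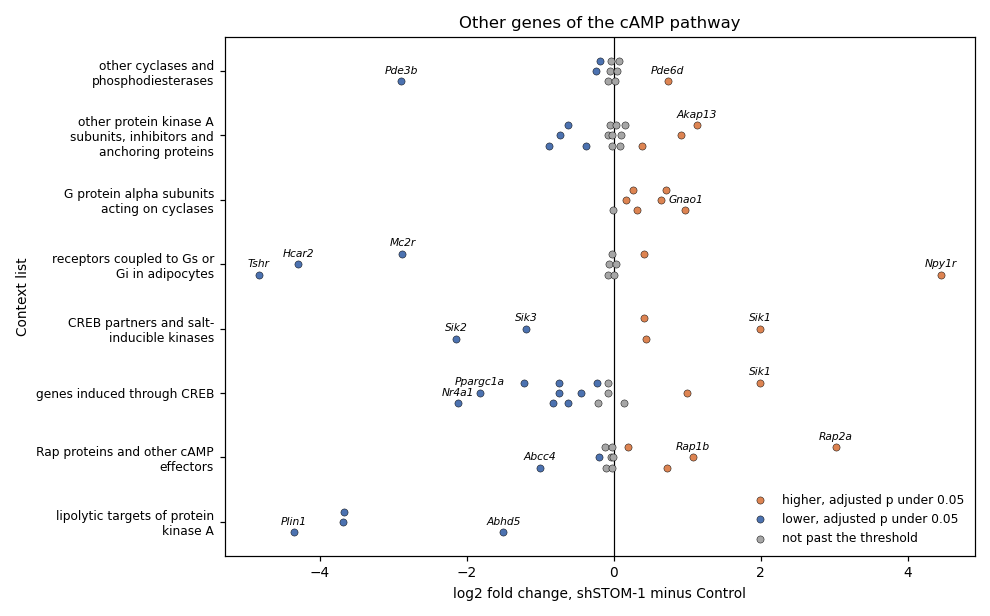
Log2 change (shSTOM-1 minus Control, x axis) of each measured gene of 8 lists of the cAMP pathway, 1 point a gene, with the vertical offset within a list for legibility only. Pde3b, the lipolytic genes, Sik2 and several receptors lie far to the left, and 6 of 7 G protein subunits lie to the right.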

How the data were processed

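The deposited values are log2 signals of 65956 transcript clusters, which the authors obtained from MTA-1_0 arrays with the Transcriptome Analysis Console. The background correction, the normalization and the genome build were not given in the sources used here. Medians of the 6 arrays ran from 5.06 to 5.11. The array annotation gave 30638 clusters 1 gene and 2176 several, which were not named. RefSeq (GRCm38.p6) supplied gene types and chromosomes for 30306, leaving 19047 coding genes. The comparison used limma 3.58.1 (lmFit, eBayes) under R 4.3.3, and p-values were adjusted by the Benjamini-Hochberg method over all coding genes. Summaries used Python 3.11.15. The procedure was tested on simulated data, and the number of arrays limits its precision. Among the 39 genes, values in all arrays are given for those past an adjusted p of 0.05 with a log2 change of 1, and for others the text turns on. Up to 4 genes of each context list are named by size of change, and Crebbp, Nr4a2, Gnai1 and Rap1a were added after their values were seen. The genes, lists and tests were chosen with earlier results of these data known, and the sequences and their motif after the values were seen. Alternatives covered scaling, dim genes, cluster averaging, moderation, a replicate block, the genes tested and leaving out each array.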

Additional observations from a re-analysis of the deposited data

How the results depend on the processing

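No gene that passed the test changed direction under any of the 14 alternative fits, and 20 of the 22 such genes passed in each of them, the largest adjusted p being 0.0315. Adcy6 did not pass in 3 of them and Pde7b in 8, and Crtc2 passed in 1. The counts of genes higher and lower were 12 to 14 and 8 to 9 over all alternatives, and 12 to 14 and 8 to 8 with single arrays left out. At an adjusted p under 0.001, 3 genes passed 3-fold in each fit, and 5 passed with 2-fold in place of 3-fold. The clone number as a replicate block gave 13 genes higher, 8 lower and 3 past 3-fold. Clones of the same number did not deviate together (correlation across genes -0.041, 0.027 and -0.126), so the number was not taken to pair the samples. Without dim genes, 29 of the 39 genes were tested. That filter keeps a gene whose mean is high in either group, so a change can itself bring a gene through it. Signals under the median of all values limit 10 genes, which are not shown to be above background. That median is not a detection limit. Genes close to it, such as Adcy5 (group means 5.16 and 5.20) and Adcy7 (Control mean 5.23), are not shown to be above background either.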
